A study of Homo sapiens with 12 samples.

Results

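The regions described here are the peaks of FOXA1, a forkhead factor that opens chromatin for the androgen receptor in prostate epithelium, in the UGT2B cluster on human chromosome 4. They were chosen by position alone: every peak of the 12 libraries whose centre lay in chr4:69340000-70400000 of the genome build hg19, a window of 1060 kb, with peaks that shared at least 1 base merged into a region. This gave 442 of 760537 peaks and 109 of 178794 merged regions, of which 77 held a FOXA1 peak in at least 1 library (78.8% of regions in the whole series did). The outermost regions inside the window were chr4:69341519-69341817, called with HA-tagged K295A at a tag count of 11.3, and chr4:70383746-70384020, called in Combination replicate 2 at 11. The nearest regions outside it were chr4:69330913-69331275, called in EPZ-6438 replicate 1 at 12.4, and chr4:70407815-70408119, called with HA-tagged WT at 10.7. A strong region also lay below the window, chr4:69329557-69330009, called in all 8 FOXA1 libraries. It had 89.2 and 79.5 in DMSO replicates 1 and 2, 80.6 with K295A and 77.8 with WT.

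Chromatin immunoprecipitation with sequencing was done on the LNCaP line of human prostate cancer cells, which respond to androgen. In the FOXA1 experiment, cells were treated for 7 days with 1 µM EPZ-6438 (the EZH2 inhibitor tazemetostat, which blocks Polycomb histone methylation), with 3 µM P5091 (which inhibits USP7, an enzyme that removes ubiquitin), with both (Combination) or with DMSO, in 2 libraries each, and endogenous FOXA1 was precipitated. The HA experiment precipitated the HA tag at 5 days from infection, in 1 library each of cells with a short hairpin against FOXA1 plus HA-tagged FOXA1 carrying K295A, the hairpin plus HA-tagged wild-type FOXA1 (WT), the hairpin alone (shFoxA1) and the pGIPZ control. The last pair carried no tag and give the background of the HA antibody. The labels do not say whether replicates were separate cultures, so p-values rest on the spread between these libraries, which may be technical. The limma fit of the 4 groups took that spread from regions of like tag count. A site's SE there does not measure the spread of its own libraries. The value given throughout is the authors' tag count of a peak, scaled to 1e7 tags per library; libraries held 12299238 to 22589685 tags for FOXA1 and 11640056 to 13694090 for HA. Combination replicate 1 stood apart from the other 7 FOXA1 libraries: it had 30811 peaks and 5.26% of its tags in peaks, against 68504 to 84423 peaks and 18.9% to 21.2% in the others. It also enters the spread that the limma and edgeR tests share over all groups, so it bears on comparisons of the other libraries. Median log2 differences from DMSO are given with and without it, and so are some of the counts that rest on it.

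UGT2B enzymes attach glucuronic acid to lipophilic molecules, which makes them soluble and ends their activity. UGT2B15 and UGT2B17 conjugate dihydrotestosterone and its metabolites and are the main route of androgen inactivation in prostate cells. Androgen lowers the expression of both in LNCaP cells, and FOXA1 is known to take part in their transcription there. UGT2B28 also acts on androgens, UGT2B7 on steroids, opioids and many drugs, UGT2B4 on bile acids and UGT2B10 on nicotine and tertiary amine drugs. UGT2B11 is an orphan member with little known activity. The genes arose by tandem duplication and lie in a row. In the RefSeq annotation of GRCh38.p14 the order along the chromosome is UGT2B17, UGT2B15, UGT2B10, UGT2A3 (a relative outside the family named here), UGT2B7, UGT2B11, UGT2B28 and UGT2B4. No hg19 annotation was used here, so regions are given by their hg19 positions and were not assigned to genes, exons or introns.

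Promoter sequences, from RefSeq on GRCh38.p14, were matched by symbol for 4 of the 7 genes and are shown because they carry both the forkhead letters FOXA1 can recognise and the likeness between gene copies. Each runs 5′ to 3′ on the gene's own strand from 250 bases before its start to 50 bases after. Capitals mark matches to 4 forkhead words searched on both strands: the word TGTTTAC, which reads GTAAACA on the reverse strand, the word TGTTTGC, the word TGTTTAT, which reads ATAAACA in reverse, and the word TATTTAC, which reads GTAAATA in reverse.
UGT2B15, chr4:68670603-68670902, minus strand: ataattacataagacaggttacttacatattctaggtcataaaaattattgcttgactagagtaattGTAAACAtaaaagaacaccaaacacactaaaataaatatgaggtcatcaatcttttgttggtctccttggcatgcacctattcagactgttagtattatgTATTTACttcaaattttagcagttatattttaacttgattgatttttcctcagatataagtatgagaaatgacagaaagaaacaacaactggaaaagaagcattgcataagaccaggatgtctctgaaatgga
UGT2B10, chr4:68815744-68816043, plus strand: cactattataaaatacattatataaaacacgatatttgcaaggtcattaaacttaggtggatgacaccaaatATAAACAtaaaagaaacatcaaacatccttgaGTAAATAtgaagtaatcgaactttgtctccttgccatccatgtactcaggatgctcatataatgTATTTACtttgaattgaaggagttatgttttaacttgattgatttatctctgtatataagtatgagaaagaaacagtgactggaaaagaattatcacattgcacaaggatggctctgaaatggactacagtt
UGT2B7, chr4:69096224-69096523, plus strand: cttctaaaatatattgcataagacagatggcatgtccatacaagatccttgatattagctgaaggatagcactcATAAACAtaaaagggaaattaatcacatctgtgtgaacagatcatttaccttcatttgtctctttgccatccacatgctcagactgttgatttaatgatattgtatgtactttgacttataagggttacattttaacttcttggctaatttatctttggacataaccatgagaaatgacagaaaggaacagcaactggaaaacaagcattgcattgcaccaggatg
UGT2B11, chr4:69214699-69214998, minus strand: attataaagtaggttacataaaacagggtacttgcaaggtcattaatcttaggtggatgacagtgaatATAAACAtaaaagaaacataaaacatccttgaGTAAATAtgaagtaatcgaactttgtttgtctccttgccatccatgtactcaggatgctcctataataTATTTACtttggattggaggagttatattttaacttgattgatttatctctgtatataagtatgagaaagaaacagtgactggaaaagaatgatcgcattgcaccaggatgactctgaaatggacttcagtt

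The forkhead word TGTTTAC stood in 1 of the 4 promoters, that of UGT2B15, 183 bases before the start and on the reverse strand; 3.42% of 35116 RefSeq promoters of this length held it. The variant TGTTTAT stood in the other promoters at nearly the same place, 178 bases before the start in UGT2B10, 176 in UGT2B7 and 182 in UGT2B11, and in 4.24% of all promoters. TATTTAC lay 83 bases before the start of UGT2B15 and 82 bases before those of UGT2B10 and UGT2B11, on the forward strand, with a further reverse-strand match 146 and 150 bases before the starts of UGT2B10 and UGT2B11; 2.67% of all promoters held it. TGTTTGC and the androgen response element, searched as both half-sites with their spacer, were in none of the 4, and in 3.89% and 0.325% of all promoters. Any of the 4 words stood in all 4 promoters and in 13.2% of all. TGTTTAT and TATTTAC were added after the sequences had been seen. That choice favours the count in these 4 promoters, and enrichment was not tested. UGT2B10 and UGT2B11 were alike at 90.1% of aligned positions, and the other 5 pairs at 63.1% to 70.6%. Stretches this alike can share reads, and how reads with several matches were placed is not given in the sources used here, so the split of tags between copies is uncertain. These matches describe letters and do not show whether FOXA1 binds there. The promoter positions are those of GRCh38.p14 and were not carried over to hg19. Whether these promoters lie in called regions was therefore not examined.

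The window was densely occupied in the HA libraries and held FOXA1 peaks in every treatment. The window had 57 peaks with K295A and 66 with WT, against 1 in shFoxA1 and 1 in pGIPZ. The FOXA1 libraries had 35 and 43 peaks under EPZ-6438, 37 and 50 under P5091, 22 and 40 under Combination, and 39 and 51 under DMSO. Among stretches of the same length that tile the genome and hold a peak, 98.3% had fewer K295A peaks and 98.8% fewer WT peaks; for DMSO replicates 1 and 2 these shares were 85.0% and 93.9%. Of the 109 regions, 32 were called in 1 library only, a share of 29.4% against 28.4% in the series, with tag counts of 6.64 to 31.9 and a median of 10.2. Of the 77 regions with a FOXA1 peak, 19 had it in 1 FOXA1 library only (26.4% in the series) and 34 had no K295A or WT peak (48.0%). Both DMSO libraries had a peak at 33 regions (32.1% in the series), of which 26 were also called with K295A (71.2%) and 25 with WT (74.2%).

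A core of 19 regions was called in all 8 FOXA1 libraries, 17.4% of the window's regions against 13.6% in the series. A further 2 regions of the window (1.83%) were called in the 7 FOXA1 libraries other than Combination replicate 1 and not in that one, against 7.55% in the series. With those counted too, the window's share was not above that of the series. The 19 core regions are numbered here as sites 1 to 19 from low to high coordinate. The core ran from chr4:69434147 to chr4:70315132, with 6659 to 166367 bases between neighbouring sites and a median of 29064. At 16 of the 19 sites WT and K295A peaks were also called (87.2% in the series). At these and site 3, which had a K295A peak only, the HA and FOXA1 peak centres lay within 57.5 bases of each other, with a median of 15. Peaks were merged because they overlap, which by itself keeps their centres close. The core sites were strong: their mean tag count over the 2 DMSO libraries had a median of 75.1 and a range of 15.9 to 146.75, against a series median of 38.4 (24261 such regions). The 14 regions called in both DMSO libraries but not in all 8 were weak, with a median of 15.5, against 16.1 in the series.

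**Figure D1:**
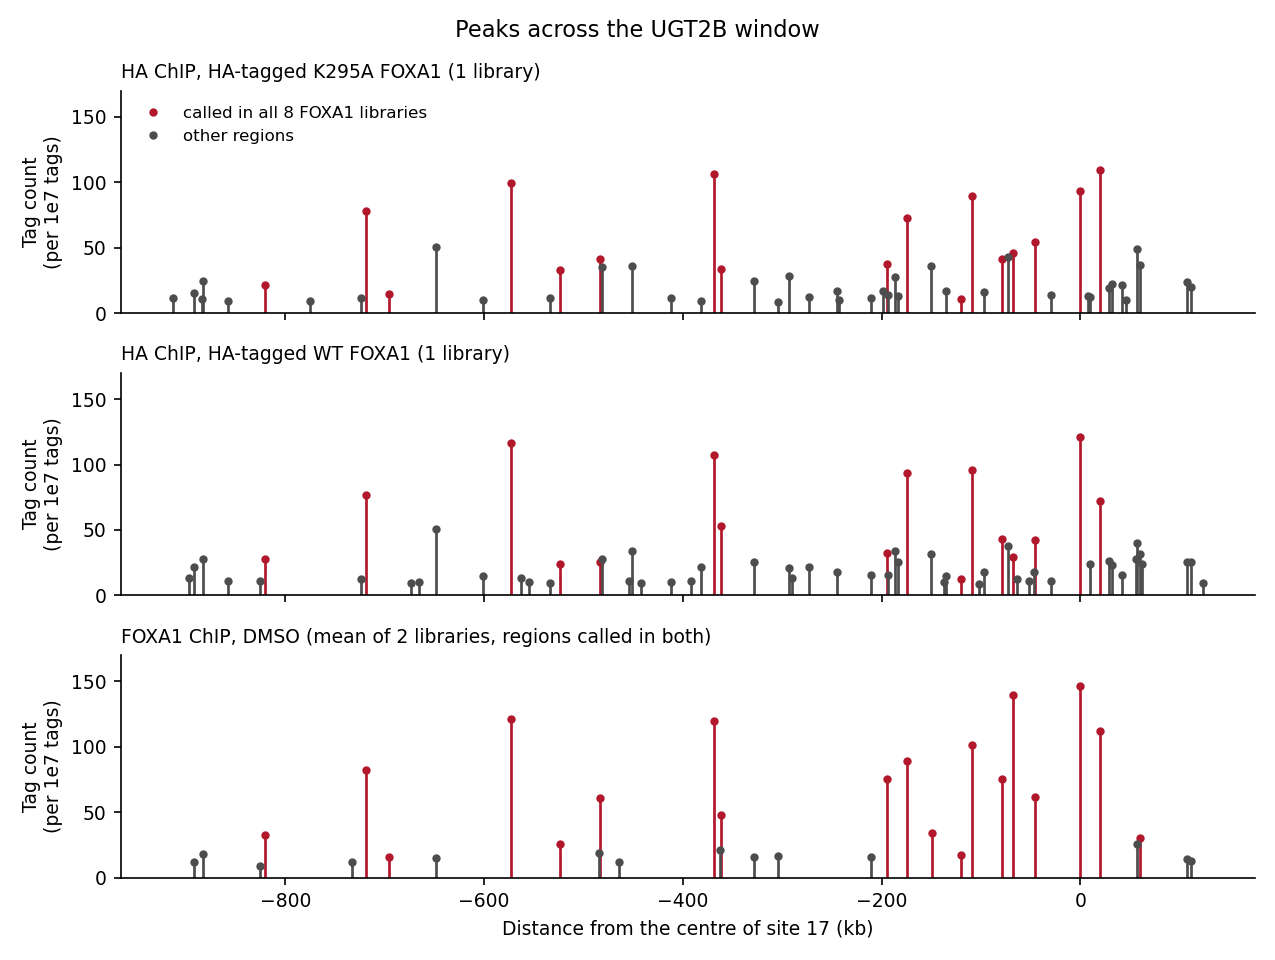
Tag count per 1e7 tags (vertical axis) of each region against its distance from the centre of site 17 in kb (horizontal axis), for HA-tagged K295A (top), HA-tagged WT (middle) and the mean of the 2 DMSO libraries of endogenous FOXA1 (bottom); red marks the 19 regions called in all 8 FOXA1 libraries. Sites 4, 7 and 17 are tall in all 3 panels, while site 15 reaches 46.0 for K295A and 29.0 for WT, against 139.4 for DMSO.

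The 5 sites highest in DMSO were site 17 (chr4:70254852-70255218), site 15 (chr4:70186980-70187345), site 4 (chr4:69681369-69681773), site 7 (chr4:69886068-69886433) and site 18 (chr4:70274189-70274579). Site 17 had tag counts of 88.5 and 124.4 under EPZ-6438, 101.1 and 136.2 under P5091, 53.8 and 112.1 under Combination, and 130.9 and 162.6 under DMSO. Both EPZ-6438 and both Combination libraries were below both DMSO libraries there, and the P5091 and DMSO libraries overlapped. Site 15 had 167.8 and 106.5 under EPZ-6438, 131.1 and 99.3 under P5091, 42.5 and 99.4 under Combination, and 152.8 and 126 under DMSO. Its highest value was an EPZ-6438 library, and the EPZ-6438 and DMSO libraries overlapped. Site 4 had 81 and 95.9 under EPZ-6438, 86.8 and 136.2 under P5091, 22.5 and 93.1 under Combination, and 111.2 and 131.8 under DMSO. Site 7 had 68.2 and 103.3 under EPZ-6438, 98.5 and 124.7 under P5091, 25.6 and 78.1 under Combination, and 111.2 and 128.9 under DMSO. At both of these sites the EPZ-6438 and Combination libraries were all below the DMSO libraries. Site 18 had 75.3 and 114.6 under EPZ-6438, 93.3 and 105.9 under P5091, 28.1 and 100.2 under Combination, and 102.4 and 121.9 with DMSO, so only the Combination libraries were both below DMSO. These 5 sites were picked by their values in the same DMSO libraries. That choice by itself favours lower values in the treated libraries, so these comparisons are descriptions only. In the order of mean DMSO levels, no neighbours among these 5 sites differed by more than the larger of their SDs over the DMSO libraries, which were 12.5 to 22.4 (n = 2). In both DMSO libraries 6 of the 19 sites (4, 7, 13, 15, 17 and 18) were at or above the 95th percentile of that library's peaks. Regions called in all 8 libraries are stronger than other peaks as a class, and their share above this percentile in the series was not counted.

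**Figure D2:**
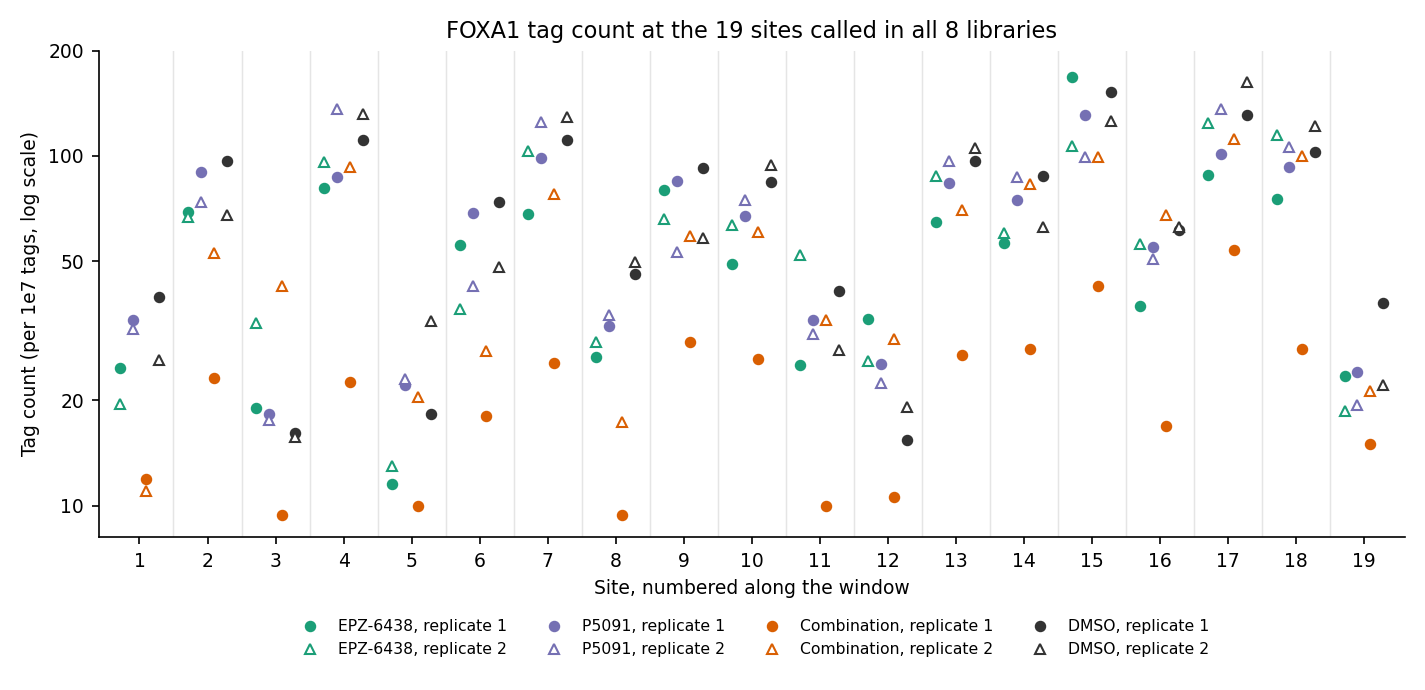
Tag count per 1e7 tags on a log axis for each of the 19 sites called in all 8 FOXA1 libraries, with groups side by side from left to right as EPZ-6438, P5091, Combination and DMSO, filled circles for replicate 1 and open triangles for replicate 2. The filled orange circles, Combination replicate 1, run from 9.38 to 53.8 and are the lowest value at every site but site 1; sites 3 and 12 have their lowest other values in DMSO.

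By the mean of HA-tagged K295A and WT the highest sites were 4, 17 and 7, again among the core. Site 4 had 99.4 with K295A and 116.8 with WT, site 17 had 93.4 with K295A and 121.4 with WT, and site 7 had 106.2 with K295A and 107.6 with WT. With K295A alone site 18 was the highest, at 109.2. No peak was called at any of the 19 sites in the untagged shFoxA1 and pGIPZ libraries. The single untagged region of the window, chr4:70296546-70296850, was called in all 4 HA libraries and in no FOXA1 library, with 21.8 in K295A, 15.3 in WT, 19.8 in shFoxA1 and 27.7 in pGIPZ. It was as high without the tag as with it, and 0.771% of the series' regions were called in an untagged library.

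Tagged and endogenous FOXA1 did not share all regions. Of 75 regions called with K295A or WT, 32 had no peak in any FOXA1 library (33.7% in the series), and 16 of the 48 called with both had none (24.3%). Of the 32, 4 lay within 1000 bases of a region with a FOXA1 peak (12.9% in the series). The highest of the 32 was chr4:70181569-70181924, with 42.9 in K295A and 37.4 in WT; it lies 5056 bases from site 15. Close to it in level was chr4:69803388-69803697, with 36.2 in K295A and 34.3 in WT. Region chr4:70314383-70314743, with 36.9 in K295A and 31.3 in WT, lies 11 bases from site 19 (chr4:70314754-70315132), where all 8 FOXA1 libraries had a peak and neither HA library did. In the same way chr4:70104917-70105257, with 36.2 in K295A and 31.3 in WT, lies 112 bases from site 11 (chr4:70105369-70105765), which had no HA peak. At these 2 places an HA region and a FOXA1 region are neighbours that share no base. The experiments differ in antibody, time and peak width, and the HA lists were called without input, so the part of the tag cannot be told apart from these differences.

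The K295A and WT proteins were called at largely the same regions of the window. Of the 75 regions, 48 were called with both (64.0%, against 61.6% in the series), 9 with K295A alone (12.2% in the series) and 18 with WT alone (26.2% in the series). The regions called with 1 protein were weak: K295A-only regions had 8.29 to 16.6 and a median of 10.5, and WT-only regions had 8.40 to 27.5 and a median of 11.4. At the 48 shared regions the K295A over WT ratio had a median of 0.947 and a range of 0.422 to 1.60, against a series median of 0.940 over 68151 shared regions. On the log2 (tag count + 1) scale the median was -0.07 (SD 0.42 over regions), against -0.08 in the series. With 1 library per protein there is no replicate check and no test.

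**Figure D3:**
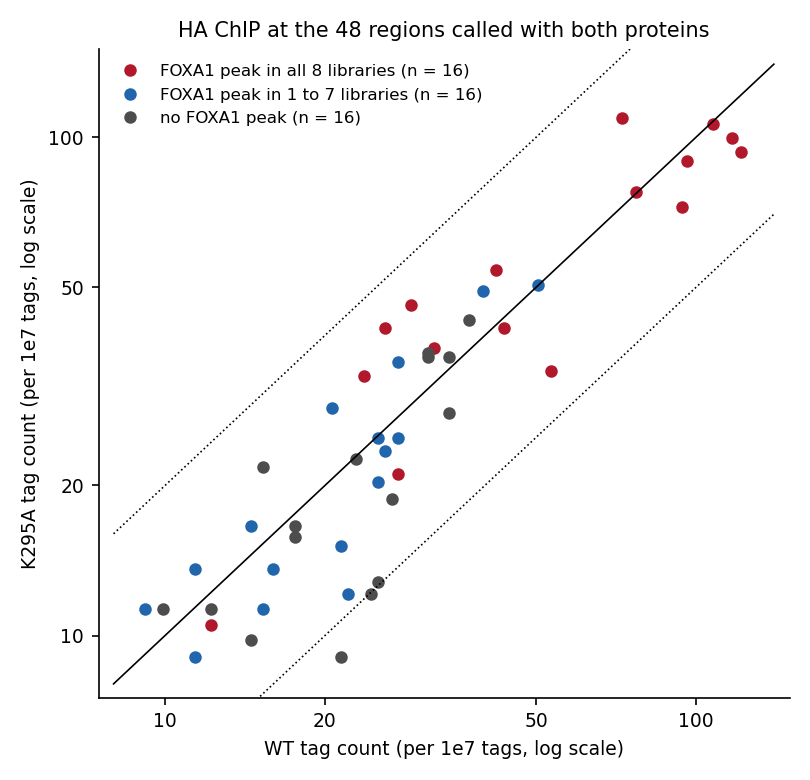
K295A tag count (vertical) against WT tag count (horizontal), both per 1e7 tags on log axes, at the 48 regions called with both proteins, coloured by whether all 8, 1 to 7 or none of the FOXA1 libraries had a peak (16 regions each); the solid line marks equality and the dotted lines a 2-fold difference. Points follow the line from about 9 tags upwards, and 2 regions lie past the lower dotted line.

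A 2-fold lower K295A value was seen at 2 of the 48 shared regions (2.29% in the series) and a 2-fold higher one at 0 (0.927% in the series). Region chr4:69872695-69873006 had 9.04 with K295A and 21.4 with WT, a ratio of 0.422 with a 95% counting interval of 0.196 to 0.859. Region chr4:70264282-70264653 had 12.1 with K295A and 24.4 with WT, a ratio of 0.496 (0.253 to 0.926). Neither had a FOXA1 peak in any library. The highest ratios were at core sites: 1.60 (1.02 to 2.53) at site 6, with 41.4 in K295A and 25.9 in WT, 1.59 (1.04 to 2.44) at site 15, and 1.51 (1.16 to 1.97) at site 18, with 109.2 in K295A and 72.5 in WT. Core sites also lay below 1: the ratio was 0.635 (0.426 to 0.936) at site 8, with 33.9 in K295A and 53.4 in WT, and 0.769 (0.604 to 0.980) at site 17. Intervals are exact binomial ones, cover counting error only and were not adjusted for the 48 regions.

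Under EPZ-6438 most core sites had lower tag counts than under DMSO, by amounts that did not pass the test. The limma fit of log2 (tag count + 1), made on all 24261 regions that every FOXA1 library shared, with Benjamini-Hochberg adjustment, called 0 of the 19 sites, and 0% of all regions. At an unadjusted p under 0.05 it found 0 of the 19 sites and 233 regions of the series (0.960%). EdgeR on recovered tags called 0 sites and 0 regions too, with 1 and 255 (1.05%) at the unadjusted threshold. The spread in both fits includes Combination replicate 1, so these counts are not a property of the EPZ-6438 and DMSO libraries alone. The unadjusted shares of 0.960% and 1.05% are far below the threshold of 0.05, so these fits are strict here. A site not passing is therefore weak evidence of no difference. With the replicate block and centring (the replicate number as a term in the model, and every library shifted to a common median), limma again called 0 sites, against 0.367% of regions lower and 0.322% higher. At an unadjusted p under 0.05 that limma fit found 6 of the 19 sites, 5 lower and 1 higher, and 3298 of the 24261 regions tested in the series. In the first limma fit the difference was negative at 16 of 19 sites, with a median of -0.42, against 58.7% of regions and a median of -0.08 in the series. Without Combination replicate 1 the median was -0.39 over the 21 regions of the window that the other libraries shared, and -0.08 in the series. Both EPZ-6438 libraries were below both DMSO libraries at 10 of 19 sites, 52.6% against 22.2% of all tested regions. Within replicate numbers, the EPZ-6438 over DMSO ratio had medians of 0.669 and 0.845 over the sites, against 0.868 and 1.03 over all tested regions. EPZ-6438 was below DMSO at 16 of 19 sites in replicate 1 (66.9% of all tested regions) and at 15 of 19 in replicate 2 (46.3%). The sites as a set also had higher tag counts than the tested regions, and whether level plays a part in these ratios was not tested.

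The lowest unadjusted p for a decrease was at site 5 (chr4:69730746-69731281), with 11.5 and 13.0 under EPZ-6438 and 18.3 and 33.7 under DMSO. The groups did not overlap there, and the log2 difference of -0.97 (SE 0.51) had an adjusted p of 1 by limma. Its size rests on the DMSO libraries: it was -0.54 without DMSO replicate 2 and -1.39 without DMSO replicate 1, and -0.37 without DMSO replicate 2 in the fit with the replicate block and centring. The lowest for an increase was at site 12 (chr4:70134733-70135201), with 34.1 and 26 under EPZ-6438 and 15.4 and 19.2 under DMSO, a log2 difference of 0.76 (SE 0.55) and also an adjusted p of 1 by limma. Site 3 (chr4:69559125-69559523) was the other of the 2 sites (13.3% of all tested regions) where both EPZ-6438 libraries were above both DMSO libraries, with 19 and 33.3 under EPZ-6438 and 16.1 and 15.7 under DMSO. Sites 3 and 12 were the 2 weakest of the core in DMSO.

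Under P5091 the core sites had slightly lower median tag counts than under DMSO, and no difference passed the test. Limma called 0 of the 19 sites and 0% of all regions, with 0 sites and 12 regions (0.0495%) at an unadjusted p under 0.05; edgeR called 0, with 0 and 13 (0.0536%) unadjusted. The spread in these fits includes Combination replicate 1. Their unadjusted shares are far below the threshold of 0.05, so a site not passing is weak evidence of no difference. With the replicate block and centring limma called 0 sites, with 0 of the 19 and 538 of the 24261 regions tested at an unadjusted p under 0.05. In the fit of the 4 groups the median log2 difference was -0.14 over the sites and -0.02 in the series. Without Combination replicate 1 it was -0.13 over the 21 regions of the window that the other libraries shared, and -0.02 in the series. Within replicate numbers the median P5091 over DMSO ratio was 0.865 and 0.916 over the sites, against 0.953 and 1.02 over all tested regions. P5091 was below DMSO at 16 of 19 sites in replicate 1 (58.0% of all tested regions) and at 12 in replicate 2 (46.4%). Both P5091 libraries were below both DMSO libraries at 3 of 19 sites (11.2% in the series) and above both at 2 (9.38%). The lowest unadjusted p was at site 8 (chr4:69893092-69893541), with 32.6 and 35.1 under P5091 and 46.1 and 49.9 under DMSO, a log2 difference of -0.49 (SE 0.59; adjusted p of 1 by limma).

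**Figure D4:**
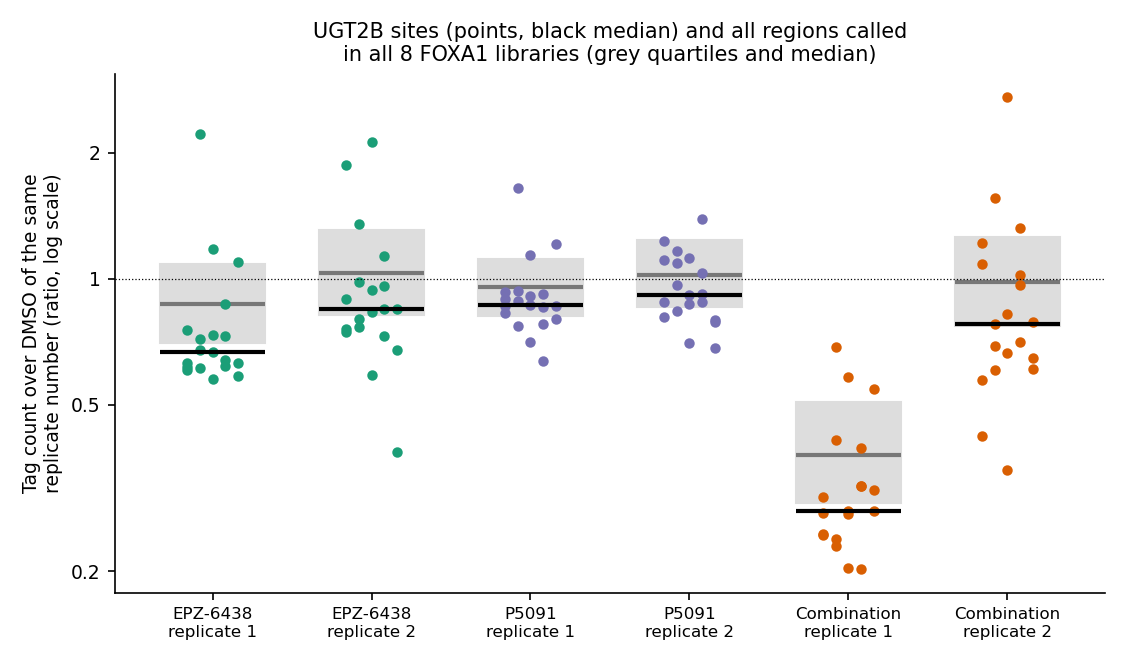
Ratio of tag count to the DMSO library of the same replicate number (vertical, log axis) for EPZ-6438, P5091 and Combination, replicates 1 and 2 side by side; points are the 19 sites with their median in black, and grey boxes and lines give the quartiles and median over all 24261 tested regions. The black median lies below the grey one in all 6 columns, for example for EPZ-6438 (0.669 against 0.868 in replicate 1) and for Combination replicate 2 (0.779 against 0.979). Columns of the same replicate number share 1 DMSO library, so they are not independent. The sites were also higher in DMSO, with medians of 84.1 and 62.7 in replicates 1 and 2, against 40.2 and 36 over all tested regions. Whether level plays a part was not tested.

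Under Combination the median tag count over the sites was lower than under DMSO, far more so in replicate 1, and no site passed the test. At sites 3 and 12 the Combination mean was higher, 26.0 against 15.9 in DMSO at site 3 and 20.3 against 17.3 in DMSO at site 12, with Combination replicate 1 below and replicate 2 above both DMSO libraries. The median ratio to DMSO was 0.279 in replicate 1 and 0.779 in replicate 2, against 0.379 and 0.979 over all tested regions. Limma called 0 of the 19 sites and 0% of all regions; at an unadjusted p under 0.05 it found 7 sites, all lower, and 3418 regions (14.1% of those tested), and edgeR called 0, with 4 and 2439 (10.1%) unadjusted. The median log2 difference was -1.05 over the sites, against -0.69 over all regions. Without Combination replicate 1 the median was -0.38 over the 21 regions of the window that the other 7 libraries shared, against -0.10 over all 37763 such regions, and limma called 0 regions. At an unadjusted p under 0.05 it then found 4 of the 21, 1 higher and 3 lower, against 2905 regions (7.69%). Combination replicate 1 was below DMSO replicate 1 at 19 of 19 sites (98.0% of all tested regions), and replicate 2 below DMSO replicate 2 at 13 of 19 (52.1%). Both Combination libraries were below both DMSO libraries at 12 of 19 sites (42.5%) and above both at 0 (0.544%). Replicate 2 alone was below both DMSO libraries at 12 sites (42.7%) and above both at 3 (27.2%).

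Site 8 had the lowest unadjusted p. It had 26.6 and 29.3 under EPZ-6438, 32.6 and 35.1 under P5091, 9.38 and 17.4 under Combination, and 46.1 and 49.9 under DMSO. No group overlapped another, and Combination was lowest and DMSO highest. The log2 difference of Combination from DMSO was -1.82 (SE 0.59), with an adjusted p of 0.348 by limma. Same-numbered libraries deviated together, and the limma fit with the replicate block and centring called 2 of the 19 sites lower and 0 higher (588 lower, 2.42% of regions, and 437 higher, 1.80%, in the series). These were site 8, at -1.15 (SE 0.31; adjusted p = 0.0214), and site 7, at -0.72 (SE 0.22; adjusted p = 0.0397). Without Combination replicate 1 this fit gave 1 site, site 8, at -1.42 (adjusted p = 0.0466 by limma). With each library left out in turn, the difference in this fit ran from -1.42 to -0.87 at site 8 and from -0.75 to -0.68 at site 7. The call at site 7 was lost without any one of the 8 libraries (adjusted p = 0.0622 to 0.315 by limma). That at site 8 was lost without Combination replicate 2 (adjusted p = 0.126 by limma) and without either DMSO library (0.0872 without replicate 1 and 0.334 without replicate 2).

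The 4 libraries with EPZ-6438, alone or combined, were also set against the 4 without. Limma called 0 of the 19 sites and 0% of all regions, with 5 sites, all lower, and 2156 regions (8.89%) at an unadjusted p under 0.05; edgeR called 0, with 4 and 1870 (7.71%) unadjusted. All 4 libraries with EPZ-6438 were below all 4 without at 3 sites, 15.8% against 8.14% of all tested regions, and above at 0 (0.0907%). These were site 1 (chr4:69434147-69434650), site 8 and site 10 (chr4:70080424-70080839). Site 1 had 24.8, 19.5, 11.9 and 11 under EPZ-6438 and 33.9, 32.1, 39.5 and 26.1 without. Site 10 had 49.1, 63.4, 26.3 and 60.8 under EPZ-6438 and 67.2, 75, 84.1 and 94 without. The median log2 difference was -0.58 over the sites, against -0.38 in the series, and it was negative at 17 of 19 sites and 84.8% of all tested regions. Without Combination replicate 1 the median was -0.27 over the 21 regions and -0.09 over the 37763 in the series. Limma then called 0 of the 21 and 7 in the series, with 5 of the 21, 1 higher and 4 lower, and 4203 (11.1%) at an unadjusted p under 0.05. Leaving out Combination replicate 1, the remaining 3 libraries were below all 4 without at 3 of 21 regions (7.75% in the series) and above at 2 (3.86%), sites 3 and 12.

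With the replicate block and centring, this comparison gave 4 of the 19 sites past the threshold, 3 lower and 1 higher (986 lower, 4.06% of regions, and 848 higher, 3.50%, in the series). The lower ones by limma were site 7 at -0.53 (SE 0.15; adjusted p = 0.0213), site 8 at -0.68 (SE 0.22; adjusted p = 0.0403) and site 4 at -0.47 (SE 0.15; adjusted p = 0.0456). The higher one was site 3 at 0.76 (SE 0.25; adjusted p = 0.0428 by limma). Site 3 had 19, 33.3, 9.38 and 42.6 under EPZ-6438 and 18.3, 17.6, 16.1 and 15.7 without. Its libraries with EPZ-6438 include both the lowest and the highest value, and the lowest is Combination replicate 1. The calls rest on few libraries: the count was 0 when either EPZ-6438, either P5091 or either DMSO library was left out, 4 without Combination replicate 1 and 2 without Combination replicate 2.

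**Figure D5:**
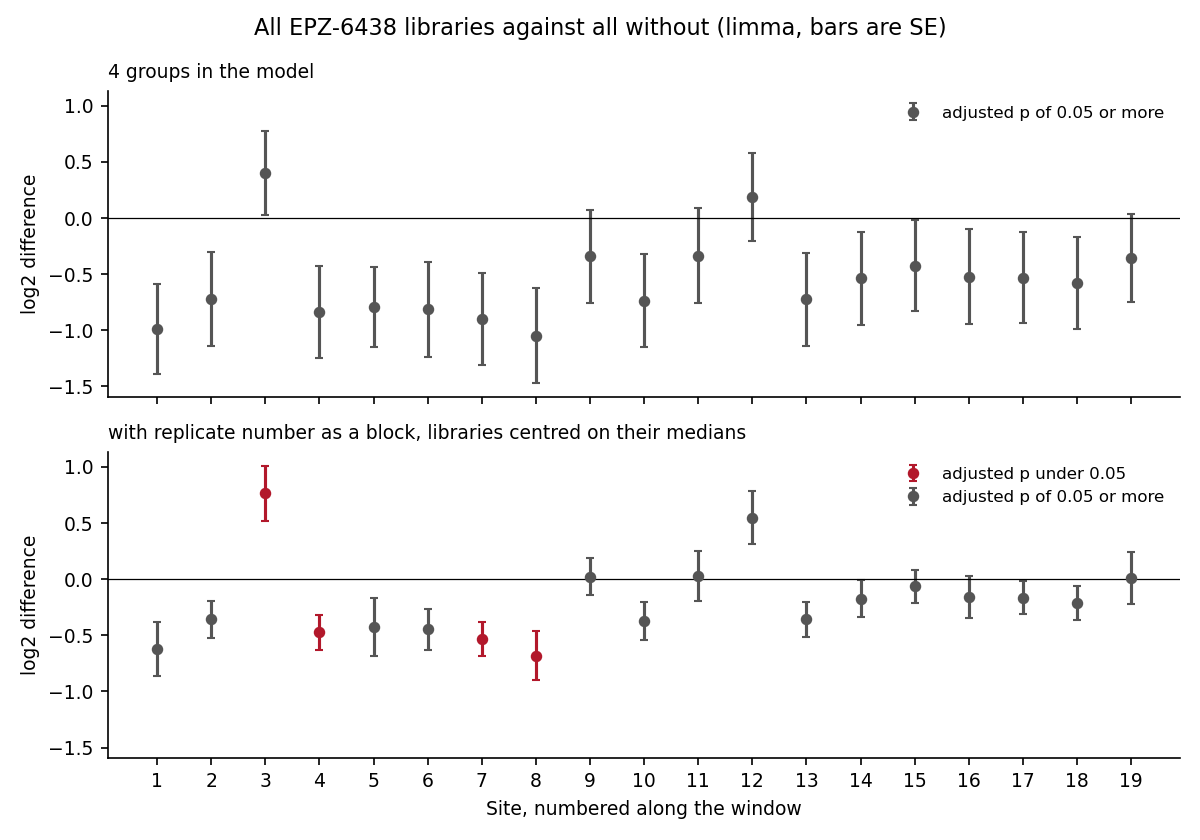
Log2 difference in tag count between all libraries with EPZ-6438 and all without (vertical, points with SE bars from limma) at sites 1 to 19, in the fit of the 4 groups (top) and in the fit with replicate block and centring (bottom); red marks an adjusted p under 0.05. No point is red in the top panel; in the bottom panel sites 4, 7 and 8 are red below 0, at -0.47, -0.53 and -0.68, and site 3 is red above 0, at 0.76.

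All libraries with P5091 against all without gave 0 of the 19 sites and 0% of regions by limma, with 0 sites and 203 regions (0.837%) at an unadjusted p under 0.05; edgeR gave 0, with 0 and 186 (0.767%) unadjusted. All 4 libraries with P5091 were below all 4 without at 0 sites (1.02% of all tested regions) and above at 0 (0.00824%). The median log2 difference was -0.45 over the sites and -0.32 in the series. Without Combination replicate 1 it was -0.11 over the 21 regions and -0.02 in the series, with 0 of the 21 and 563 (1.49%) at an unadjusted p under 0.05 by limma. The interaction of the 2 drugs was past the threshold at 0 sites and 0 regions by limma (0 sites and 158 regions, 0.651%, unadjusted) and by edgeR (0 and 141, 0.581%). Without Combination replicate 1 limma found the interaction at 0 of the 21 regions and 419 in the series (1.11%), unadjusted, and at 0 after adjustment. The unadjusted shares for all P5091 libraries and for the interaction are also below the threshold of 0.05. The comparisons with DMSO share the same 2 DMSO libraries, so their differences are not independent of each other.

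Outside the core, a few weak regions were called in 1 treatment and not in DMSO, or the reverse. With EPZ-6438, 3 of the 33 regions that both DMSO libraries shared had no peak in either replicate (7.43% in the series), and 1 of 26 called in both EPZ-6438 libraries had none in DMSO (9.68%). With P5091, 2 of 33 were lost (5.51%) and 2 of 30 gained (5.13%). With Combination, 6 of 33 were lost (13.9%) and 0 of 21 gained (2.88%). Combination replicate 1 had peaks in 1 of the 14 weaker DMSO regions, and the same 6 of 33 were lost (14.9%) when replicate 2 alone was counted. Of the 40 regions called in Combination replicate 2, 6 had no DMSO peak (22.2%).

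Region chr4:69362591-69362955 was lost in all 3 treatments: it had no peak in any treated library and 13.2 and 11.6 in DMSO, but 15.1 with K295A and 21.4 with WT. Region chr4:69950887-69951252, lost with EPZ-6438 and Combination, had 18.2 in P5091 replicate 2 and 16.8 and 16.3 in DMSO. Region chr4:69428756-69429279, lost with the same 2 treatments, had 9.78 in P5091 replicate 1 and 11 and 6.97 in DMSO. The lowest tag count that could be called was 6.20 to 8.13 across the FOXA1 libraries.

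The other loss with P5091 was chr4:70361538-70361976, with 21.2 and 15.4 under EPZ-6438, 13.4 in Combination replicate 2, and 16.1 and 12.8 under DMSO. The regions lost with Combination and no single drug were chr4:69521809-69522282 (13.9 and 11 in DMSO), chr4:69790491-69790896 (9.51 and 14.5 in DMSO) and chr4:70365836-70366249 (14.6 and 10.4 in DMSO). Of the gained regions, chr4:69964205-69964589 was gained with both single drugs, with 17.7 and 10.6 under EPZ-6438, 16.3 and 13.9 under P5091, 7.89 in Combination replicate 2 and no DMSO peak. Region chr4:69982395-69982821 was gained with P5091, at 11.1 and 9.68, with 9.76 in EPZ-6438 replicate 2, 12.6 in Combination replicate 2 and no DMSO peak. A missing peak means that the region was not called at this depth, not that FOXA1 was absent.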

How the data were processed

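Per the submitters' processing notes, reads were processed with Bowtie2 and HOMER 4.2 on hg19; mapping settings are not given in the sources used here. Per the file headers, the authors called peaks in each library with HOMER findPeaks at a false discovery rate of 0.001 and at least 4-fold over a local window of 10 kb, and for FOXA1 also 4-fold over an input shared by both replicates. The deposited tag count is a signal scaled to 1e7 tags. The deposited findPeaks score served for a stricter threshold only, the deposited fold over local and input is the caller's own ratio, and a deposited whole-number count was given in 3 libraries. Tag count times library total gave whole tags within print rounding for 100% of peaks, equal to the deposited count for 99.2% of peaks in those 3.

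The 12 lists were merged at 1 shared base over the whole genome (Python 3.11.15, pandas 2.3.3), and a region took each library's highest peak. Limma 3.58.1 (R 4.3.3, trend on) tested log2 (tag count + 1) at regions called in all 8 FOXA1 libraries, with 4 groups and Benjamini-Hochberg adjustment at 0.05, since a signal is not a count; edgeR 4.0.16 on the recovered tags was an alternative. Steps were tested on simulated data. For the fits these were drawn with neither a weak library nor a replicate effect. They do not show how the fits behave with a library like Combination replicate 1. Replicate numbers come from the titles; their deviations correlated at 0.148 to 0.488 in all 6 pairs of groups, so values with a replicate block are given where they change a call. Regions named are those called in all 8 libraries that lead a comparison, the 5 highest in DMSO, the 3 highest in HA and those lost or gained; regions 11, 112 and 5056 bases from a core site, and those past 2-fold, were picked after their values were seen. Members and lists were chosen with earlier results of these data known. Motifs were searched in RefSeq promoters, as no hg19 genome was used.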

Additional observations from a re-analysis of the deposited data

How the results depend on the processing

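Tag counts are given only where a peak was called, which limits the tests to strong regions, and with 2 libraries per group and 1 per HA condition small differences could not be resolved. Keeping only peaks with a findPeaks score at or above the pooled median (20 for FOXA1, 17 for HA) left 62 merged regions in the window, against 109, and 20 called in both DMSO libraries, against 33. The replicate block alone left the count of sites past the threshold at 0 in all 5 comparisons, as did a pseudocount of 5, centring alone, regions called in at least 4 libraries, tag counts per 300 bases of peak width and edgeR. The replicate block with centring gave 2 sites for Combination and 4 for all EPZ-6438 libraries; with regions called in at least 4 libraries it gave 1 and 2, and leaving out each library in turn from it gave 0 to 1 and 0 to 4. The per-width fit, the blocked fit at 4 or more libraries and the blocked fits without a library were chosen after seeing the data.

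Without one library and without the block, the count was 0 to 16 for Combination, 0 to 14 for all EPZ-6438 libraries and 0 to 12 for all P5091 libraries. The counts above 0 came from leaving out Combination replicate 2, which leaves Combination replicate 1 as the lone library of its group, assumed to vary like the others; all these sites were lower. In that setting the difference at site 3 (chr4:69559125-69559523) turned to -0.70 for Combination and -0.12 for all EPZ-6438 libraries, and that at site 5 (chr4:69730746-69731281) to -0.20 for all P5091 libraries; without DMSO replicate 1 the last was -0.17. The highest values without one library were 1.37, 0.92 and 0.28. The cause was not tested beyond this. The counts of regions called with both HA proteins and the median K295A over WT ratio stayed within 1.5 times or 1 SD of their values under the alternatives run.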
